A study of Mus musculus with 13 samples.

Results

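Ube2ql1 and 8 KRAB zinc finger genes of mouse chromosome 13 (Rsl1, Zfp729a, Zfp729b, Zfp455, Zfp457, Zfp458, Zfp459 and Zfp595) were followed across aorta and gastrocnemius muscle of aged mice. They are 9 of the 19838 genes measured. They were selected on the aorta counts, in which Ube2ql1, Rsl1 and Zfp729b were higher in dNdK mice, so the aorta values describe that choice and carry no test. The same contrast in muscle did not enter the choice and was tested.

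The study set mice with added FOXM1 against their controls at an advanced age. The dNdK mice carried 1 copy of a transgene for GFP-FOXM1dNdK, a version of FOXM1, a transcription factor of the cell cycle, fused to GFP, together with Rosa26-rtTA, the doxycycline-dependent activator placed in the Rosa26 locus. The Rosa26 mice carried Rosa26-rtTA without the FOXM1 transgene, so both genotypes share the activator. All animals were 88 weeks old and of a mixed FVBxC57BL/6 background. The labels name no sex, no doxycycline treatment, no transgene insertion site and no parental origin of chromosome 13 in single animals. There were 2 dNdK and 4 Rosa26 libraries of aorta, and 3 dNdK and 4 Rosa26 libraries of muscle. Nothing in the labels says whether an aorta and a muscle library come from 1 animal, or that the libraries of a group come from separate animals, so p-values measure the spread between these libraries.

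Ubiquitin is passed to its targets by a chain of enzymes in which an E2 conjugating enzyme carries it. UBE2QL1, the product of Ube2ql1, is an E2 enzyme known from human cells to ubiquitinate proteins on damaged lysosomes, a step of their clearance by autophagy known as lysophagy. KRAB zinc finger proteins bind DNA through tandem C2H2 zinc fingers and recruit the corepressor TRIM28 (KAP1) through the KRAB domain. Rsl1 (regulator of sex-limitation 1) is known from mouse liver. There, Rsl1 and its relatives repress male-enriched genes such as Cyp2d9, the Slp form of complement C4 and major urinary protein (Mup) genes. Which of these genes Rsl1 itself represses was not tested here. The other zinc finger genes belong to the same cluster, and 6 of them carry Rslcan names (Rsl candidate) as RefSeq synonyms.

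In RefSeq coordinates of GRCm38.p6, Ube2ql1 spans chr13:69702832-69739897. The zinc finger genes lie below it, with Rsl1 at chr13:67173182-67183499, Zfp729b at chr13:67589439-67609707 and Zfp729a at chr13:67612760-67637803. Their starts are 2.53 Mb (Rsl1), 2.11 Mb (Zfp729b) and 2.09 Mb (Zfp729a) from that of Ube2ql1. The longest open reading frames of the GENCODE transcripts held 12 C2H2 finger patterns in Rsl1, 27 in Zfp729a and 30 in Zfp729b, and 3 to 20 in the other 5 zinc finger genes. The Ube2ql1 frame, of 304 codons, held none. Among the 8 zinc finger genes, aligned reading frames were 71.4% to 92.7% identical over 28 pairs. Zfp729a and Zfp729b were the closest pair, and 27.0% of the 31-base words of Zfp729a also occur in Zfp729b. An amplicon in a shared stretch could assign reads to either gene, and the amplicon positions are not given in the sources used here, so the split between these 2 genes is uncertain.

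Ube2ql1 and Rsl1 were chosen for their rise in dNdK aorta, whereas Zfp729a, the close relative of Zfp729b, overlapped between genotypes there. The promoter sequences of Ube2ql1, Rsl1 and Zfp729a are shown. They are RefSeq windows of GRCm38.p6, from 250 bases before the start that the promoter table uses to 50 after it, for Ube2ql1 chr13:69739848-69740147 (minus strand), for Rsl1 chr13:67172932-67173231 (plus strand) and for Zfp729a chr13:67637732-67638031 (minus strand). For Zfp729a that start lies slightly inside the annotated gene span given above. Capitals mark matches, on either strand, to the forkhead core TAAACA, the cell cycle element TTTGAA (CHR), the GC box GGGCGG, the TATA box TATAAA or the CCAAT box CCAAT.
Ube2ql1: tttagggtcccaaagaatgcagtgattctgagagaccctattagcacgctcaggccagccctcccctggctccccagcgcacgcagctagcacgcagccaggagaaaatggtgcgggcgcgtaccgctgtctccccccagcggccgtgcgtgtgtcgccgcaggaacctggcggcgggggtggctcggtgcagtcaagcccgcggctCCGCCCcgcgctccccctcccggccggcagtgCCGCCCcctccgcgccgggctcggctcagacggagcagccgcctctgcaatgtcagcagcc
Rsl1: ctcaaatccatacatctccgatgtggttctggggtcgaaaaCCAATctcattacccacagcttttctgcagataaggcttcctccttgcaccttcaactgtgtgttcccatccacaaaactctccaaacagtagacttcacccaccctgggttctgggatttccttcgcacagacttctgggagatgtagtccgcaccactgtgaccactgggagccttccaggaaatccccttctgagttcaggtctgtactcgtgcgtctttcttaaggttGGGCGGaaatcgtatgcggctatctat
Zfp729a: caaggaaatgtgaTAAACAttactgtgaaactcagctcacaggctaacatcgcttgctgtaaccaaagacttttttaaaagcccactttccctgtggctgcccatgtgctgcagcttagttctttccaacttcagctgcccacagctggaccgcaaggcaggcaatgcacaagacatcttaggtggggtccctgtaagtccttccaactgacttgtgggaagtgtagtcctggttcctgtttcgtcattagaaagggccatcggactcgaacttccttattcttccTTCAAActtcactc
The Ube2ql1 window held 30 CpG dinucleotides, against a median of 7 over 32851 promoters of the same length, and 2 GC boxes. The Rsl1 window held 9 CpG, 1 CCAAT box and 1 GC box. The Zfp729a window held 5 CpG, 1 forkhead core and 1 CHR match. Of all promoters, 13.4% held the forkhead core, 17.9% the CHR, 35.7% the GC box, 13.6% the TATA box and 37.4% the CCAAT box. No 2 matches overlapped in these windows, and a match describes letters, not a bound site.

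Depth was 3919526 to 13683952 gene counts per library, and a floor of 3 counts came to 0.219 to 0.765 CPM, the counts scaled to each library's total. Foxm1 had 2 to 5 counts in dNdK aorta and 2 to 24 in Rosa26 aorta, and 0 to 3 in dNdK muscle and 1 to 3 in Rosa26 muscle. Whether its amplicon reads the transgene is not stated, so these counts check no label. Libraries labelled aorta had high levels of fat cell markers: the summed level of 7 brown adipocyte markers was 17716 to 17925 CPM in dNdK and 15522 to 20432 CPM in Rosa26, and the smooth muscle list summed to 257 to 379 CPM in dNdK and 245 to 565 CPM in Rosa26. The 7 cardiomyocyte markers summed to 6.18 and 2386 CPM in the dNdK aorta libraries and to 3.57 to 2433 CPM in Rosa26, so heart RNA did not follow genotype. In muscle, 8 fibre markers summed to 169463 to 228608 CPM in dNdK and 208307 to 216240 CPM in Rosa26.

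Ube2ql1 was the member with the highest level and stood apart in the aorta. It had 75.7 and 70.1 CPM in the dNdK aorta libraries, and 9.76, 10.6, 12.1 and 7.65 CPM in the Rosa26 aorta libraries. The genotypes did not overlap, and the lowest dNdK library was far above the highest Rosa26 library. The means were 72.9 ± 3.94 CPM in dNdK (SD, n = 2) and 10.0 ± 1.87 CPM in Rosa26 (SD, n = 4), and the fitted log2 fold change was 2.99 (SE 0.22), or 7.97-fold. That fold change had rank 16 from the highest among the 11920 aorta genes tested. In bulk tissue, more cells of a type and more RNA per cell cannot be told apart. Adipocyte markers, 7 in number, summed to 16645 and 22097 CPM in dNdK aorta and to 15104 to 19989 CPM in Rosa26 aorta. The 6 endothelial markers summed to 899 and 960 CPM in dNdK aorta and to 920 to 2509 CPM in Rosa26 aorta, and the 6 B cell markers to 6.54 and 14.3 CPM in dNdK aorta and to 2.55 to 470 CPM in Rosa26 aorta. All 3 ranges overlapped between genotypes, and the part of cell content in the Ube2ql1 levels was not tested.

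**Figure D1:**
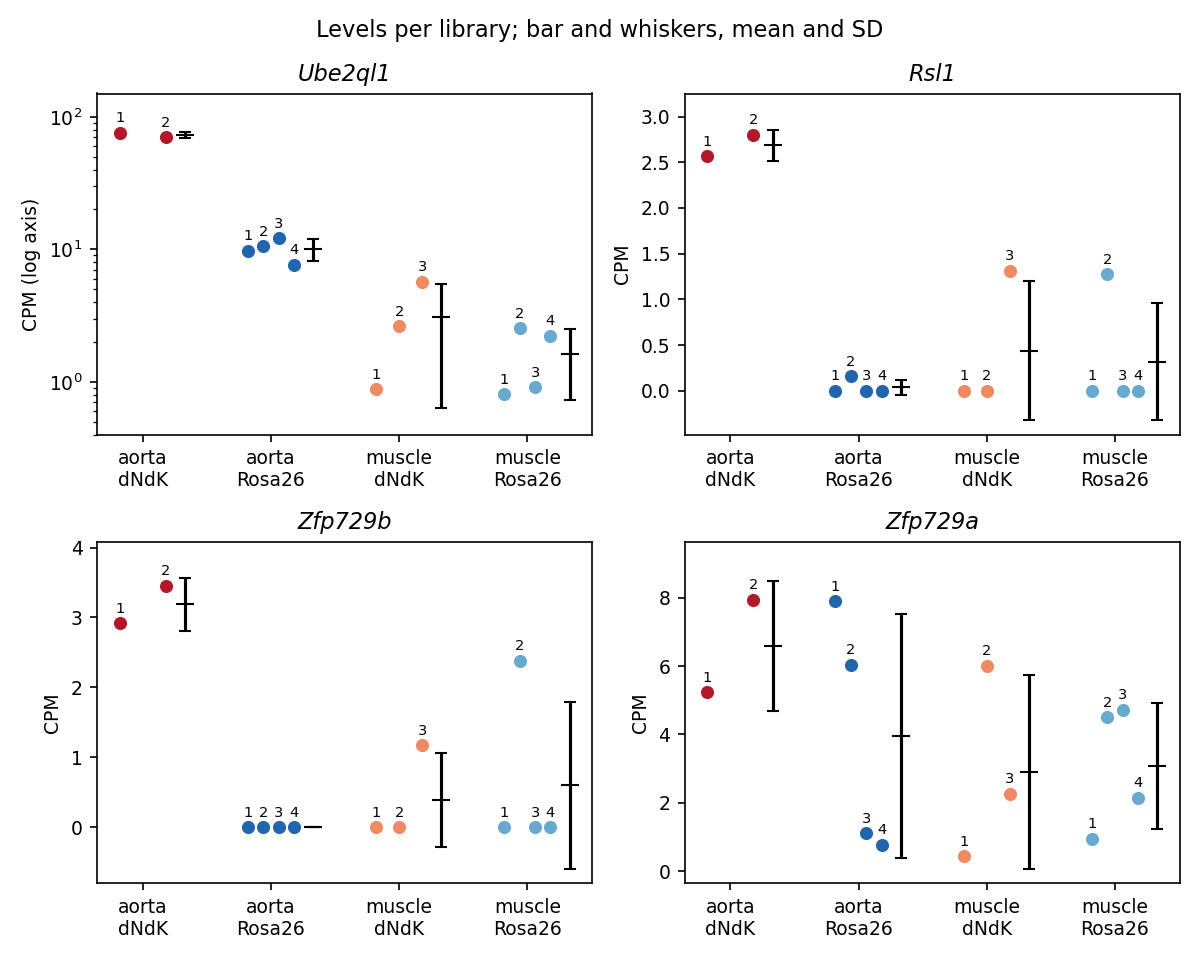
Levels of Ube2ql1, Rsl1, Zfp729b and Zfp729a in CPM (y axis; a log axis for Ube2ql1) in the 4 groups (x axis); each point is 1 library with its replicate number, and the bar with whiskers gives the mean and SD. Ube2ql1 sits at 70.1 CPM or more in dNdK aorta and at 12.1 CPM or less in every other library, while Zfp729a overlaps between the genotypes in both tissues.

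Among the zinc finger genes, Rsl1 and Zfp729b were read in dNdK aorta and lay at or below the floor in Rosa26 aorta. Rsl1 had 22 and 30 counts (2.56 and 2.80 CPM) in the dNdK libraries, against 0, 2, 0 and 0 counts in the Rosa26 libraries. Zfp729b had 25 and 37 counts (2.91 and 3.46 CPM) in the dNdK libraries and 0 counts in each of the 4 Rosa26 libraries, where the floor was 0.242 to 0.765 CPM. Both genes thus lay above the floor in both dNdK libraries and at or below it in all Rosa26 libraries of aorta. Pooled over libraries, Rsl1 was 48.5-fold higher in dNdK than in Rosa26, with an exact 95% counting interval of 12.8 to 411. Zfp729b was at least 38.5-fold higher, taking 3 counts over the Rosa26 group as the floor. These intervals and bounds cover counting error only. Without Rosa26 replicate 2, which held both Rosa26 counts of Rsl1, that ratio became a bound of at least 21.2-fold, and the Zfp729b bound became at least 25.2-fold.

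Zfp729a, the closest relative of Zfp729b by sequence, showed another pattern. It had 5.25 and 7.94 CPM in dNdK aorta and 7.91, 6.05, 1.11 and 0.765 CPM in Rosa26 aorta. The genotypes overlapped, and the spread within Rosa26 was wider than the difference between the means (6.59 ± 1.91 CPM in dNdK, SD, n = 2, and 3.96 ± 3.57 CPM in Rosa26, SD, n = 4). The fitted log2 fold change was 0.86 (SE 0.81). The libraries with heart RNA were dNdK 2, Rosa26 1 and Rosa26 2, which were also those with the most Zfp729a. In the other 3 libraries, dNdK 1 against Rosa26 3 and 4, the log2 fold change was 2.54. It rests on 1 dNdK library, and the part of heart RNA in this was not tested.

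The other 5 zinc finger genes were low. Zfp595 averaged 1.38 ± 0.361 CPM in dNdK aorta and 1.62 ± 0.358 CPM in Rosa26 aorta (SD, n = 2 and 4), and its fitted log2 fold change was -0.10 (SE 0.57). Zfp458 averaged 1.11 ± 0.246 CPM in dNdK aorta and 1.23 ± 0.419 CPM in Rosa26 aorta, with a log2 fold change of -0.03 (SE 0.63). Both overlapped between genotypes. Zfp459 had 0 and 2 counts in dNdK aorta and 2 to 5 counts in Rosa26 aorta. Zfp457 had no count in any aorta library, and Zfp455 had none in any of the 13 libraries.

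**Figure D2:**
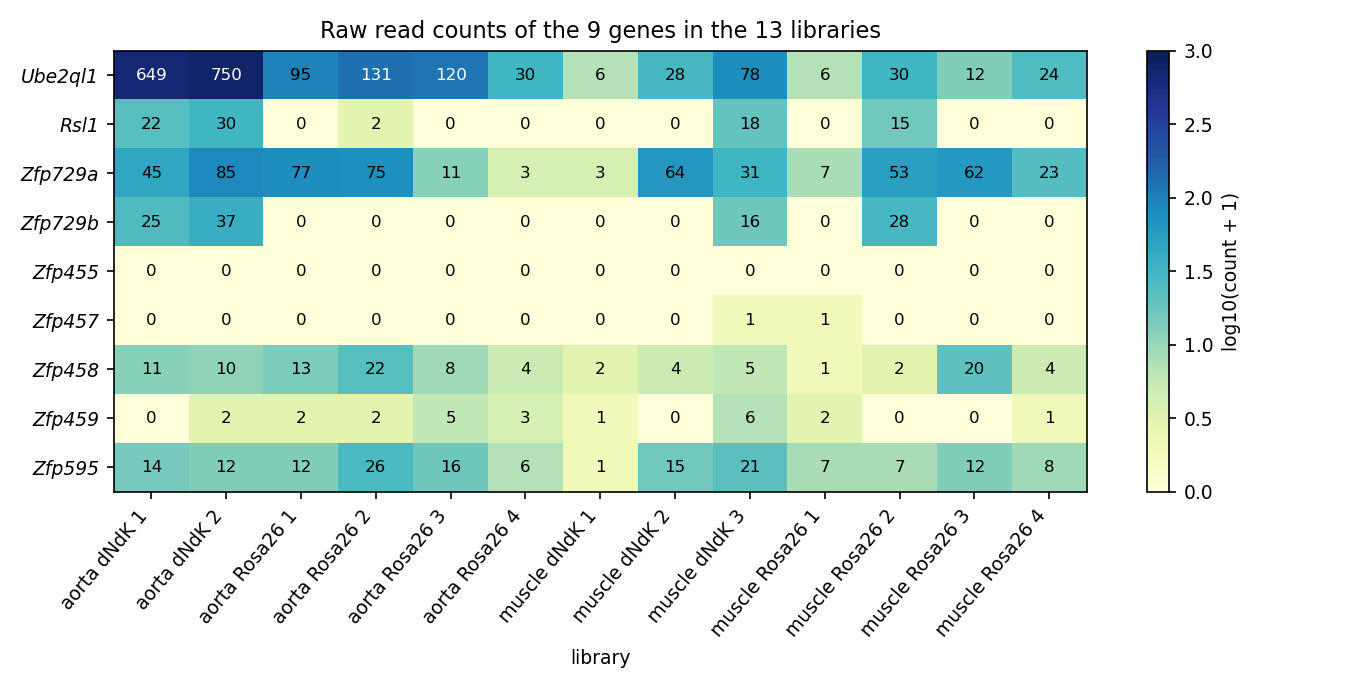
Raw read counts of the 9 genes (rows) in the 13 libraries (columns, dNdK before Rosa26 within each tissue); the colour gives log10 of the count plus 1. Rsl1 and Zfp729b reach 10 counts or more in the same 4 libraries, which are both dNdK aorta libraries, dNdK muscle 3 and Rosa26 muscle 2.

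Of the 9 genes, 6 passed the filter on low counts in aorta, among them Rsl1 and Zfp729b, which passed through the dNdK libraries alone. For 3 of these 6, every dNdK library lay above every Rosa26 library on the TMM-scaled CPM. Over all aorta genes tested, 9.12% lay that way round and 8.27% the other way, and on CPM without TMM scaling 5.03% and 13.8%. The 3 genes are those for which the set was chosen, so nothing is read from this count. At an adjusted p under 0.05, edgeR called 1 aorta gene (0.00839% of the genes tested) and DESeq2 called 13 (0.109%). The 9 genes were chosen on this contrast, so no call is read for any of them.

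A stricter pattern, set after these values were seen, asked for at most 3 counts over all Rosa26 aorta libraries and at least 10 in each dNdK aorta library. It was met by 6 of the 19838 genes (0.0302%). Rsl1 and Zfp729b, whose values set the pattern, are 2 of them, so nothing is read from the count. Chromosome 13 holds 3.89% of all genes, and its share of the pattern was not tested. The others on chromosome 13 were Vmn1r215, a vomeronasal receptor gene, and Gm10037, whose RefSeq synonym is Rslcan24. Vmn1r215 lies outside the window of 5 Mb around Ube2ql1 used below. Gm10037 starts 1.87 Mb below Ube2ql1 and had 11 and 10 counts in dNdK aorta, against 1, 0, 0 and 0 counts in Rosa26 aorta. The remaining genes were Gpr12 on chromosome 5 and B4galnt4 on chromosome 7. In muscle no gene met the pattern.

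Muscle was the test that the choice of genes did not use. Of the 9 genes, 3 passed the filter there, and edgeR called 0 of them. The others were not fitted, and the permutation test below could not reach a p under 0.05 with these libraries. A difference may therefore have been missed. Ube2ql1 had 0.883, 2.63 and 5.70 CPM in the dNdK libraries and 0.807, 2.55, 0.914 and 2.24 CPM in the Rosa26 libraries. The dNdK 3 library lay above all Rosa26 libraries, dNdK 2 was level with the highest of them and dNdK 1 with the lowest. The means were 3.07 ± 2.44 CPM in dNdK (SD, n = 3) and 1.63 ± 0.896 CPM in Rosa26 (SD, n = 4). The log2 fold change was 0.75 (SE 0.61), with an edgeR quasi-likelihood adjusted p of 0.809, and without dNdK 3 it was 0.06. An exact two-sided permutation test of the 7 CPM values gave p = 0.286, where the smallest p this design allows is 0.0571. On average muscle held less Ube2ql1 than aorta in both genotypes, with no test made of the difference between tissues.

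That dNdK 3 muscle library also stood apart in fat RNA. The 7 adipocyte markers summed to 12166 CPM there, against 354 and 782 CPM in the other 2 dNdK muscle libraries and 254 to 819 CPM in the Rosa26 muscle libraries. Adipoq, the adipocyte hormone adiponectin, was at 129 CPM in dNdK 3. Among the Rosa26 muscle libraries the highest adipocyte sum, 819 CPM, was that of Rosa26 2, the other muscle library with Rsl1 and Zfp729b counts. The dNdK 2 muscle library, at 782 CPM, had 0 counts of both genes. Rosa26 aorta libraries, at 15104 to 19989 CPM, had 0 to 2 counts of Rsl1 and 0 of Zfp729b. The part of fat RNA in these levels was not tested.

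Rsl1 in muscle had 0, 0 and 18 counts in dNdK and 0, 15, 0 and 0 counts in Rosa26. Zfp729b had 0, 0 and 16 counts in dNdK and 0, 28, 0 and 0 counts in Rosa26. Each gene was therefore read in 1 library of each genotype, and these were the same 2 libraries for both genes. Pooled ratios of dNdK over Rosa26 were 1.66 for Rsl1 (exact 95% counting interval 0.790 to 3.54) and 0.791 for Zfp729b (0.400 to 1.51). They turned on single libraries. Without dNdK 3 the dNdK group held 0 counts, and with 3 counts over the group as the floor the ratio was at most 0.494 for Rsl1 and at most 0.265 for Zfp729b. Without Rosa26 2 the Rosa26 group held 0 counts, and dNdK was at least 6.03-fold higher for Rsl1 and at least 5.36-fold higher for Zfp729b. Without dNdK 2 the ratios were 2.52 for Rsl1 and 1.20 for Zfp729b. Exact permutation p-values over the 7 libraries were 0.857 for Rsl1 and 1 for Zfp729b. Both genes fell short of the filter on low counts in muscle and so have no fitted value.

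Zfp729a in muscle had 0.442, 6.01 and 2.27 CPM in dNdK and 0.941, 4.51, 4.72 and 2.14 CPM in Rosa26. It was read in every library of both genotypes, and its log2 fold change was -0.20 (SE 0.75, edgeR adjusted p = 0.974), a sign that turned when single libraries were left out. Zfp595 had 0.147, 1.41 and 1.53 CPM in dNdK muscle and 0.941, 0.595, 0.914 and 0.746 CPM in Rosa26 muscle, with a log2 fold change of 0.27 (SE 0.62, edgeR adjusted p = 0.952). Zfp458 and Zfp459 had at most 20 counts in a muscle library. Zfp457 had 1 count in dNdK 3 and 1 count in Rosa26 1.

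In muscle 3 of the 9 genes passed the filter. Of these, 0 were called by edgeR or DESeq2, and 0 had an unadjusted edgeR p under 0.05. Over all 10491 muscle genes tested 0 were called (0%), with 792 (7.55%) at an unadjusted p under 0.05, while DESeq2 called 7 (0.0667%). For none of the 3 did the genotypes separate, against 2.94% of all muscle genes with every dNdK library higher and 2.98% with every dNdK library lower.

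The numbers in the deposited names recur in 4 pairs of 1 aorta and 1 muscle library of the same genotype. The labels do not say what the number stands for, so whether a pair shares an animal was not tested. In the dNdK pair, Rsl1 had 22 counts in aorta and 18 in muscle, and Zfp729b had 25 and 16. In each of the 3 Rosa26 pairs both genes had 0 counts in both tissues. The 2 genes were thus read in both tissues or in neither within each pair. Only 1 pair is dNdK, and the 0 counts of Rosa26 aorta belong to the choice of the genes. Aorta dNdK 2 and muscle Rosa26 2, in which both genes were read, have no partner of the same number. Ube2ql1 was at 75.7 CPM in aorta and 5.70 CPM in muscle in the dNdK pair, the highest muscle value of all. In the Rosa26 pairs it was at 9.76, 12.1 and 7.65 CPM in aorta and at 0.914, 0.807 and 2.24 CPM in muscle.

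**Figure D3:**
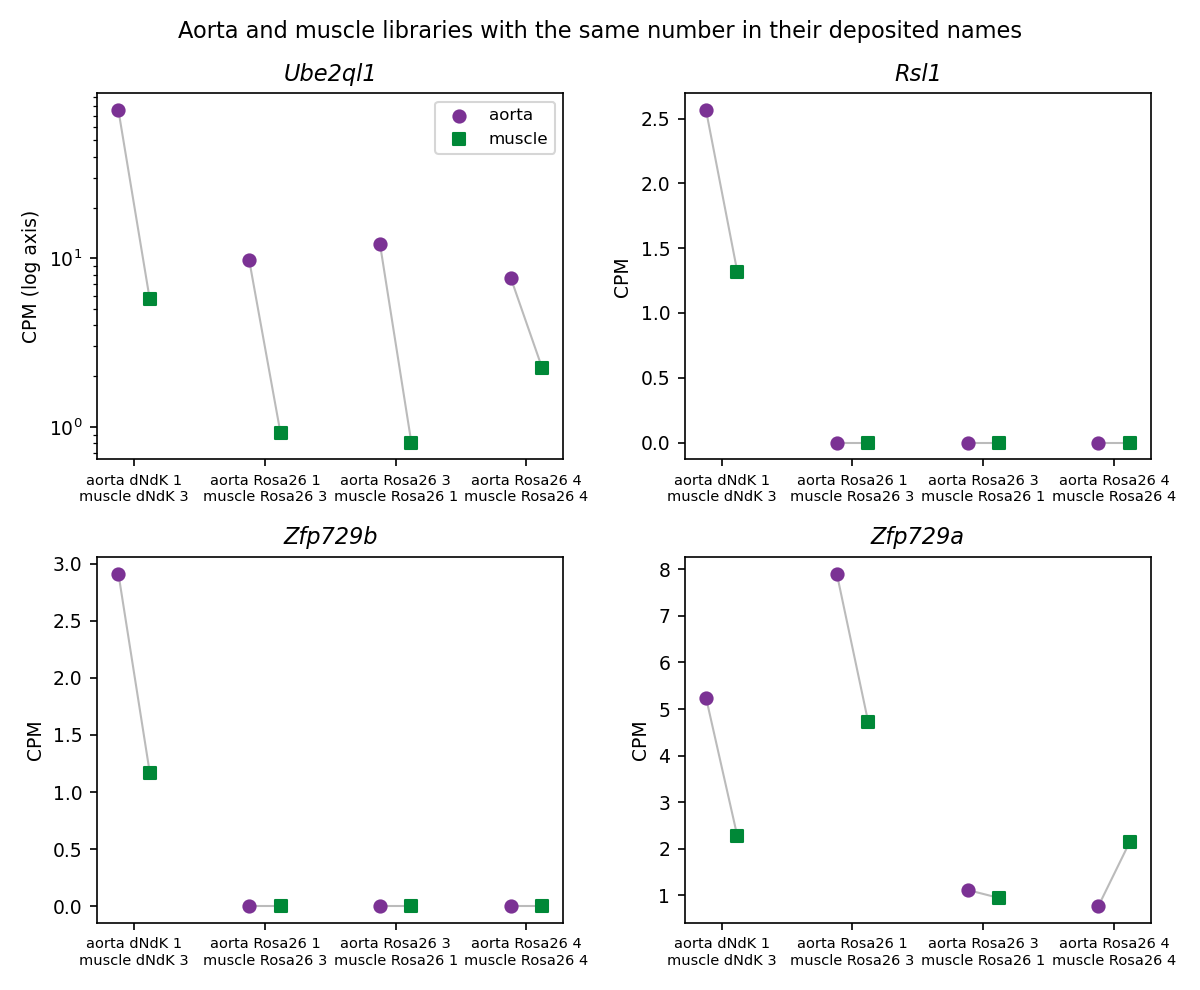
Levels in CPM (y axis; a log axis for Ube2ql1) of the 4 genes in aorta (circles) and muscle (squares) for the 4 pairs of libraries with the same number in their deposited names (x axis). Rsl1 and Zfp729b are above 0 in both tissues of the dNdK pair and at 0 in both tissues of the 3 Rosa26 pairs.

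Across the 13 libraries, centred on each tissue's mean, the 2 zinc finger genes followed each other closely. The Pearson r of log2 CPM between Rsl1 and Zfp729b was 0.989, among the highest of the 12252 genes compared with either. With Ube2ql1, Rsl1 had r = 0.86 and Zfp729b r = 0.841, whereas Zfp729a had r = 0.457 and Zfp595 r = 0.195. These coefficients describe the 13 libraries, carry no p, and rest on the 4 libraries in which Rsl1 and Zfp729b were read. The 13 include the aorta libraries, and Ube2ql1, Rsl1 and Zfp729b were chosen for their shared rise there. Nothing is therefore read from their r with each other, or from the lower r of Zfp729a and Zfp595. The same holds for the genes named next, since a gene higher in dNdK aorta gains r with these members. Tas2r125, for example, reached 10 counts only in the dNdK aorta libraries (10 and 14 counts). Among genes that are no members, those close to Ube2ql1 included the taste receptor gene Tas2r125 on chromosome 6 (r = 0.843) and the estrogen sulfotransferase gene Sult1e1 on chromosome 5 (0.837). Gamt on chromosome 10, which makes creatine, was among the closest to both Rsl1 (0.905) and Zfp729b (0.884). Mup3 on chromosome 4 was too, at 0.898 with Rsl1 and 0.857 with Zfp729b. Tnfrsf23 on chromosome 7 (0.857, with Rsl1) and Cntn2 on chromosome 1 (0.881, with Zfp729b) completed the lists. The lists depended on the measure: with Spearman rho, 1 of the 5 genes most like Ube2ql1, 1 of those most like Rsl1 and 2 of those most like Zfp729b were again among the 5 most alike, and with a prior count of 0.5, 3, 4 and 4.

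The neighbourhood was then read by position alone, taking all 73 other measured genes within 5 Mb of Ube2ql1. In aorta 39 were tested, of which 24 had higher and 15 lower estimates in dNdK, and 0 were called. Their median log2 fold change was 0.17, beside -0.05 over all aorta genes, of which 45.8% had higher estimates. In muscle 33 were tested, 15 higher and 18 lower, with 0 called and a median of -0.02. Over all muscle genes the median was 0.03, and 53.1% had higher estimates. At an unadjusted edgeR p under 0.05 there was 1 higher gene in aorta (2.33% of all aorta genes were higher at that level) and 1 lower gene in muscle (2.12% of all muscle genes). Estimates of the genes tested in the aorta window ran from -0.75 to 1.75, below that of Ube2ql1 (2.99), which was chosen for its rise. Gm10037, whose counts are given above, did not pass the filter for this fit. Nor did Ahrr, which had 0 counts in dNdK aorta and 17 in Rosa26 aorta.

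The nearest genes differed in sign. Tent4a, a non-canonical poly(A) polymerase gene below Ube2ql1, averaged 11.1 ± 0.183 CPM in dNdK aorta and 20.3 ± 5.0 CPM in Rosa26 aorta (SD, n = 2 and 4), with a log2 fold change of -0.75 (SE 0.34, edgeR adjusted p = 0.757). Nsun2, an RNA methyltransferase gene, was at -0.18 (SE 0.21) in aorta on the same scale. Above Ube2ql1, Ice1 had -0.36 (SE 0.31) and the homeobox genes Irx1 and Irx2 had 0.17 (SE 0.59) and 1.14 (SE 0.59) in aorta. None passed the test. Adcy2, which encodes an adenylyl cyclase, fell under the aorta filter and had -0.72 in muscle (SE 0.24, edgeR adjusted p = 0.656).

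Other Zfp genes of the same stretch numbered 20, of which 9 were tested in each tissue. In aorta 7 had higher and 2 lower estimates in dNdK (median log2 fold change 0.36), and in muscle 2 had higher and 7 lower estimates (median -0.15), with 0 called by edgeR or DESeq2 and 0 at an unadjusted p under 0.05 in either tissue. Zfp65 had 0.30 (SE 0.39) in aorta and -0.38 (SE 0.29) in muscle, Zfp369 -0.32 (SE 0.25) and 0.23 (SE 0.26), and Zfp748 0.21 (SE 0.54) and -0.27 (SE 0.45). In the 3 aorta libraries without heart RNA, of which only dNdK 1 is a dNdK library, the aorta median was 1.02.

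**Figure D4:**
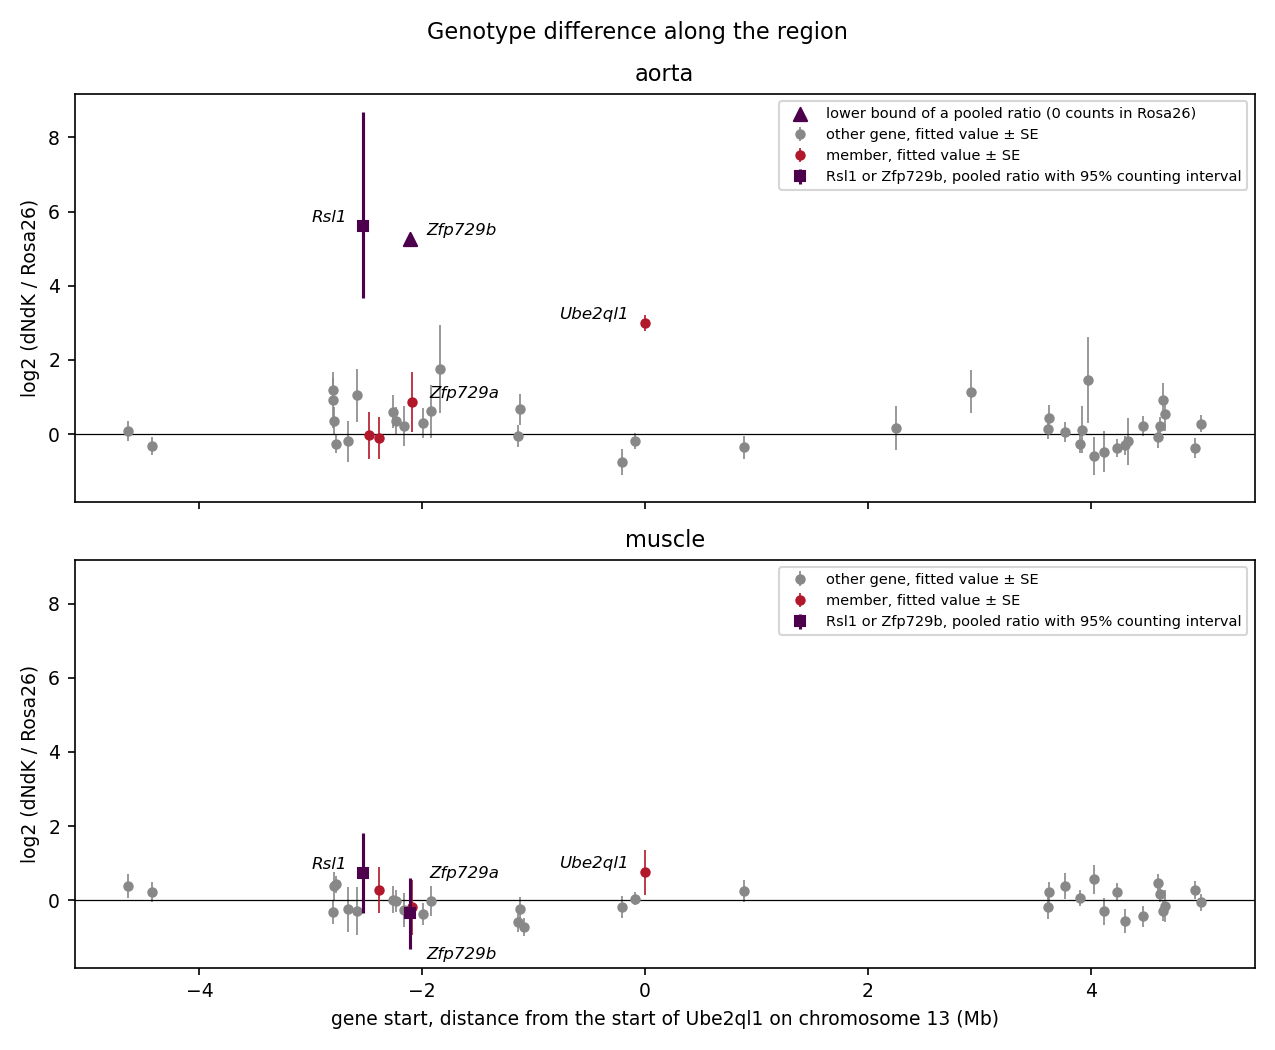
Log2 ratio of dNdK over Rosa26 (y axis) against distance of each gene's start from that of Ube2ql1 (x axis, Mb) in aorta (top) and muscle (bottom); grey and red points are fitted values with SE, the squares are pooled ratios with 95% counting intervals and the triangle is a lower bound. In aorta Ube2ql1 (2.99), Rsl1 and Zfp729b, chosen for this rise, stand above the other genes drawn (median of the grey points 0.17). In muscle no gene drawn stands apart. Other genes are drawn only if they passed the filter. That leaves out genes of both directions. Examples are Gm10037 (21 counts in dNdK aorta, 1 in Rosa26 aorta) and Zfp429 (10 and 1). Others are Ahrr (0 and 17), Slc9a3 (2 and 18) and Slc6a18 (0 and 10).

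Genes of the pathways that these proteins act in were taken from lists, in which edgeR and DESeq2 called 0 genes in either tissue. Over all genes tested, 45.8% had higher estimates in dNdK aorta and 53.1% in dNdK muscle. Of 17 measured lysophagy genes, which detect, ubiquitinate and clear damaged lysosomes, 15 were tested in each tissue, with 0 at an unadjusted p under 0.05. In aorta 9 had higher and 6 lower estimates in dNdK (median log2 fold change 0.13), with Optn, an autophagy receptor gene, at 0.43 (SE 0.21) and Yod1, a deubiquitinase gene, at 0.48 (SE 0.26). In muscle 3 had higher and 12 lower estimates (median -0.17), with the autophagy receptor gene Calcoco1 at -0.46 (SE 0.21) and the lysosomal channel gene Mcoln1 at -0.38 (SE 0.19).

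Estimates of the other E2 enzyme genes spread around 0. Of 32 measured, 23 were tested in each tissue, with 14 higher and 9 lower in aorta (median log2 fold change 0.08) and 12 higher and 11 lower in muscle (median 0.01). Ube2e1 was the 1 gene of the list at an unadjusted p under 0.05, beside 2.33% of all aorta genes higher at that level. Ube2e1 and Ube2e2 had 0.66 (SE 0.28) and 0.57 (SE 0.26) in aorta. Ube2c and Ube2s, the E2 enzymes of the anaphase-promoting complex, had 1.32 (SE 0.65) and -0.45 (SE 0.23) in muscle.

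Of 23 measured corepressor genes, through which KRAB proteins act, 21 were tested in aorta, with 8 higher and 13 lower estimates in dNdK. Their median log2 fold change was -0.12, and 0.10 with the first strand alone. At an unadjusted p under 0.05, 3 were lower, beside 3.65% of all aorta genes. Dnmt1, the maintenance DNA methyltransferase, averaged 12.4 ± 2.89 CPM in dNdK aorta and 25.7 ± 6.12 CPM in Rosa26 aorta (SD, n = 2 and 4; log2 fold change -0.91, SE 0.30, edgeR adjusted p = 0.757). Mta2, a subunit of the NuRD complex, had -0.93 (SE 0.32). In muscle 6 of 19 had higher and 13 lower estimates (median -0.09), with Dnmt3a at -0.17 (SE 0.20) and Atf7ip, a partner of the methyltransferase SETDB1, at -0.18 (SE 0.21).

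Genes listed as repressed by Rsl1 and its relatives in liver were mostly not read here. Of 11 measured, 7 had no count in any library, 2 were tested in aorta and 1 in muscle. The muscle gene was C4b, and whether it stands for the Slp form of complement C4 was not tested. The muscle value of the list is that of C4b alone. Mup3 had 36 and 53 counts in dNdK aorta and 22, 36, 9 and 4 in Rosa26 aorta, or 4.20 and 4.95 CPM against 0.911 to 2.90 CPM, with a log2 fold change of 1.48 (SE 0.56, edgeR adjusted p = 0.757). Mup genes are near-identical copies, so this assignment is uncertain. C4b, a complement gene, averaged 54.8 ± 27.1 CPM in dNdK aorta and 116 ± 50.4 CPM in Rosa26 aorta (SD, n = 2 and 4; log2 fold change -0.93, SE 0.43), and had 0.88 (SE 0.49) in muscle. Cyp2d9, named after its values were seen, had 4 and 11 counts in dNdK aorta and 0, 0, 1 and 0 counts in Rosa26 aorta, and none in muscle. None of the 3 passed the test or, for Cyp2d9, the filter.

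The reads of the leading genes came from both strands. Over all libraries the first strand held 41.7% of the Ube2ql1 reads, 27.6% of those of Rsl1, 44.7% of those of Zfp729a and 50% of those of Zfp729b, and 46.3% to 49.3% of all gene counts of a library. On the first strand alone, which holds fewer reads, Rsl1 was at least 9.86-fold and Zfp729b at least 17.9-fold higher in dNdK aorta than in Rosa26 aorta.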

How the data were processed

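Targeted transcriptome libraries (AmpliSeq primers, 12 PCR cycles from 10 ng of RNA, read on an Ion Torrent sequencer, per the labels' protocols) were deposited as 13 tables of raw read counts per gene, with 3 columns: either strand, the first strand and the second. The submitters' processing notes name STAR 2.5.2b, the build mm10 (GRCm38.p6), limma 3.42.2 and edgeR 3.28.1. The libraries carry no molecular identifiers, so intervals cover counting error only.

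The either-strand column was used here, over 19838 genes. Gene rows held 86.7% to 91.4% of a table's reads and multimapping reads 0.723% to 2.11%, at 3919526 to 13683952 gene counts per library. CPM of single libraries are counts scaled to the library's gene total. Each tissue was fitted alone in R 4.3.3 with the edgeR 4.0.16 quasi-likelihood test, TMM scaling, filterByExpr (min.count 10, min.total.count 15) and Benjamini-Hochberg adjustment over all genes tested, at a threshold of 0.05. The SE was derived as |log2 fold change| divided by the root of F. DESeq2 1.42.0, other filters, single strands, a replicate block, left-out libraries and 1 fit of all 13 libraries were alternatives. Single genes in muscle were also compared by an exact two-sided permutation test over libraries. The fits were tested on simulated data.

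The genes, lists and window were chosen with earlier results of these data known. Named genes were all 9 members, the 3 nearest tested neighbours on each side, the 3 window Zfp genes and the 2 genes of each list with the smallest p per tissue, and the 5 genes most alike in log2 CPM (prior count 2) to Ube2ql1, Rsl1 and Zfp729b. Vmn1r215, Gm10037, Gpr12, B4galnt4 and Cyp2d9 were named after their values were seen. So were Zfp429, Ahrr, Slc9a3 and Slc6a18. Of the genes this rule names, 2 are not reported here. Sequences come from RefSeq and GENCODE tables.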

Additional observations from a re-analysis of the deposited data

Results flagged for a closer look

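In groups of 4 libraries, 14 of 107 tested combinations of gene and group had 1 library far from the others; by its nominal rate the criterion flags about 1 in 20 groups by chance, a rate not checked for values of 1 or 2 counts beside 0. Rosa26 muscle 2 accounted for 7 of them. It held Rsl1 at 1.28 CPM and Zfp729b at 2.38 CPM, with the other 3 Rosa26 muscle libraries at 0. It was also the highest Rosa26 muscle library for Adipoq (6.89 CPM, against 1.31 to 2.02), Msln (2.55 CPM, against 0.134 to 0.186) and Upk3b (0.425 CPM, others at 0). The same held for Sult1e1 (0.085 CPM, which is 1 count, others at 0) and Cntn2 (2.13 CPM, against 0.186 to 0.381). Cntn2 was named for its likeness to Zfp729b over these libraries, so its flag is no separate observation.

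Rosa26 aorta 2 held Rsl1 at 0.161 CPM (2 counts) and the B cell gene Cd79a at 0.403 CPM, each with the other 3 libraries at 0. Rosa26 muscle 1 held Zfp457 at 0.134 CPM, which is 1 count. Rosa26 aorta 3 stood above the others for Yod1 (16.7 CPM, against 12.7 to 13.3) and for the mesothelial genes Msln (150 CPM, against 27.6 to 38.2) and Upk3b (236 CPM, against 48.2 to 78.6). Rosa26 aorta 1 held the muscle fibre gene Myh1 at 2.26 CPM, against 0 to 0.242.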

How the results depend on the processing

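The aorta log2 fold change of Ube2ql1 was 2.75 to 3.21 under the alternatives and 2.94 to 3.09 with single libraries left out. That of muscle Ube2ql1 was 0.72 to 0.86 (adjusted p 0.666 to 0.997), and 0.06 to 1.12 (adjusted p 0.621 to 0.998) with single libraries left out; a stricter filter removed the gene. Genes called in aorta, 1 in the fit reported, numbered 13 with DESeq2, 0 with all 13 libraries in 1 fit, 0 with either strand alone, 30 in the libraries without heart RNA (an alternative chosen after seeing the data) and 0 to 1 with single libraries left out. Genes called in muscle, 0 in the fit reported, numbered 7 with DESeq2 and 0 to 3 with single libraries left out. Muscle Zfp729a turned to 0.31 on the first strand alone and ranged from -1.31 to 0.26 with single libraries left out, and Zfp595 from -0.029 to 0.69.

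With a replicate block, 140 genes were called in aorta and 0 in muscle. Whether the replicate numbers pair the libraries was not settled. Same-numbered dNdK and Rosa26 libraries had deviations correlated at -0.344 and 0.189 in aorta and at 0.215, -0.0418 and -0.00747 in muscle. Muscle libraries of different numbers had -0.196 to 0.242. In aorta the 2 dNdK libraries, centred on their mean, mirror each other, so these values cannot tell pairing from none.

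In the libraries without heart RNA the medians were 0.43 for the chromosome 13 window, 1.02 for its Zfp genes and 0.85 for the Rsl targets in aorta. Only dNdK 1 stands for its genotype in that fit. The Rsl target median was 1.93 with no filter and -0.94 with the stricter filter, settings that by construction test more or fewer genes. The corepressor median in aorta was 0.10 on the first strand alone. With single libraries left out, the muscle median of the window Zfp genes was -0.45 to 0.073 and that of the E2 genes -0.10 to 0.0079. The cause of these shifts was not tested. Counts near the floor limit what can be said of Zfp455, Zfp457 and Zfp459, and 2 dNdK aorta libraries limit every aorta value.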
